A study of Mus musculus with 17 samples.

Results

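The cytosolic ribosome is built from ribosomal RNA and the proteins of a large family of genes, named Rpl for the large subunit and Rps for the small subunit. The family was taken here by symbol: names that start with Rpl or Rps followed by a digit, plus Rplp0, Rplp1, Rplp2 and Rpsa, without pseudogene symbols, the S6 kinases and Rps19bp1. The rule found 85 symbols among the 25899 rows of the count table. Of these, 82 had at least 10 counts in at least 3 libraries and are described below, 50 of the large subunit and 32 of the small subunit. Rpl13, Rpl35 and Rps27rt were listed at 0 counts in all 17 libraries. All 82 kept genes also passed the filter on low counts of the test.

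Ribosomal protein mRNAs are abundant and stable, and most begin with a terminal oligopyrimidine (TOP) tract, a C at the first base followed by a run of pyrimidines. The TOP tract lets mTOR and LARP1 control how strongly these mRNAs are translated, and ERK signalling feeds into the same machinery through the RSK kinases and the phosphorylation of ribosomal protein S6. Their transcription is known to use ETS family factors such as GABP, as well as SP1, YY1 and, in proliferating cells, MYC. Many of the genes also carry small nucleolar RNAs (snoRNAs), guides for rRNA modification, in their introns.

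The cells were E14tg2a mouse embryonic stem (ES) cells of strain 129SV in which Erk1 and Erk2 had been knocked out. They carried 2 transgenes instead: FLAG-tagged ERK2 with the Q103A change, which lets the inhibitor PP1 block it, and cRAF-ErT2, a RAF kinase switched on by 4-hydroxytamoxifen (4OHT). All groups received the FGF receptor inhibitor PD173074 at 250 nM for 24 h in serum and LIF. New RNA was labelled with 5-ethynyluridine (EU, 5 mM) in the final 15 min, captured by click chemistry and sequenced, so a value here is RNA made during or kept through a short pulse, not the standing mRNA pool. The 6 groups were PP1 with 4OHT (PP1 at 2 µM, 4OHT at 250 nM for 2 h), PP1 alone, a MEK inhibitor at 1 µM with 4OHT (MEKi with 4OHT), MEKi alone, 4OHT alone and DMSO. The DMSO group held 2 libraries, of clones b and c, and each other group held 3, of clones a, b and c. The clones are of 1 engineered line, so p-values cover the spread between these clones only. How long the inhibitors acted without 4OHT is not clear from the labels, which also spell the code of the MEK inhibitor in more than one way.

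Libraries held between 5239690 and 11093390 counts. The 8 ES cell markers checked were all detected, with a summed level of 2876 to 3875 CPM (counts per 1000000 counts of scaled library size) in each library, whereas none of 8 fibroblast markers passed the filter on low counts and S100a4 was at 0. Values below are CPM of library sizes scaled by the trimmed mean of M values (TMM), unless a sentence says percent of counts. A gene is said to have risen, fallen or changed only where edgeR's quasi-likelihood test gave a Benjamini-Hochberg adjusted p under 0.05 over the 14907 genes tested. The 7 comparisons and 2 interactions share libraries, since DMSO and 4OHT enter several of them. In bulk RNA, fewer cells of a type and less RNA per cell cannot be told apart.

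Promoter sequences of 62 of the 82 genes were matched by symbol in RefSeq (mouse build GRCm38.p6, 250 bases before to 50 bases after each annotated start). They are shown because the start of the transcript carries the TOP tract and because the windows hold the motifs that the family is known for. In the following 30-base windows, given on the strand of the gene and 5′ to 3′, 15 bases lie before the annotated start. Capitals mark a run that starts with C and continues with at least 4 pyrimidines within 5 bases of the start.
Rps6, chr4:86857353-86857382, minus strand: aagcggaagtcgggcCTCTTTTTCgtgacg
Rps10, chr17:27635230-27635259, minus strand: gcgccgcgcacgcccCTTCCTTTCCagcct
Rps18, chr17:33955651-33955680, minus strand: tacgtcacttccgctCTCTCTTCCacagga
Rpl35a, chr16:33056467-33056496, plus strand: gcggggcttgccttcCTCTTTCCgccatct
Rps24, chr14:24490663-24490692, plus strand: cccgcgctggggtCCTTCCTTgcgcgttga
Rpl24, chr16:55966260-55966289, plus strand: agaaagctgttgctaggaaacagactgggc
Rpl5, chr5:107900513-107900542, plus strand: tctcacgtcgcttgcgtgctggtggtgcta

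A run of this kind began exactly at the annotated start in 12 of 62 members (19.4%), against 2.72% of all 16419 genes with a promoter, and within 5 bases of it in 28 of 62 (45.2%), against 21.8%. These 16419 are the protein-coding genes of the count table with a promoter, without a filter on counts, whereas every member had counts. Where a gene had several annotated starts, a match at any of them was counted. Rps6, the S6 kinase substrate, and Rps10, mutated in some human patients with Diamond-Blackfan anaemia, show the plain form. In Rpl24 and Rpl5 no such run lies in the window of the annotated start, which says only that these letters are not there. Rps24 has another annotated start, with the window chr14:24490738-24490767, where no such run lies either. Rps10, Rps18 and Rpl35a were chosen for their sequences.

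The ETS and GABP core CCGGAAG, searched on both strands (CTTCCGG in reverse complement), was found in 25 of 62 members (40.3%), against 13.3% of all genes. Here too all genes are the 16419 with a promoter, without a filter on counts. A palindrome of 10 bases, in capitals in the last 4 windows below, was found in 6 of 62 (9.68%), against 0.755% of all genes: Rpl10a, Rpl12, Rpl26, Rps6, Rps19 and Rps28. The YY1 core AAGATGG, searched like the others on both strands, was in 10 of 62 (16.1%, against 7.29%). The SP box GGGCGG was in 38 of 62 (61.3%, against 51.0%) and the MYC E-box CACGTG in 6 of 62 (9.68%, against 9.18%). Each motif was searched on its own, so matches of different motifs may overlap. A match is a description, not a site or a cause. Examples of the first pair follow, with the motif in capitals.
Rps6, chr4:86857440-86857469, minus strand: ttaatctacgcCCGGAAGtaacgcccctct
Rps7, chr12:28635949-28635978, minus strand: tttcagaagagCTTCCGGtttccacccacc
Rps6, chr4:86857399-86857428, minus strand: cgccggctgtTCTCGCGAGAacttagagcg
Rpl10a, chr17:28328524-28328553, plus strand: aacgggcaacTCTCGCGAGAacgcgggctc
Rpl26, chr11:68901530-68901559, plus strand: gctccgagacTCTCGCGAGAtctcgcggca
Rps19, chr7:24884574-24884603, plus strand: cactccgaaaTCTCGCGAGActcgacgccc

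The 82 genes lie on 19 chromosomes, with 14 on chromosome 7 and 4 on the X (GENCODE M21, build mm10), and are short, with a median span of 3328.5 bp (828 to 31449 bp). By that annotation 29 of them host 57 snoRNA genes, led by Rpl4 with 5. For 17 of the 82, another gene of the table overlaps the span, in 15 cases on the opposite strand, such as Rpl5 and Fam69a, Rpl3 and Syngr1, or Rps18 and Vps52. The strand setting of the counting is not given in the sources used here, so reads of such pairs cannot be told apart. Near-identical pseudogenes are a second limit: the annotation holds 294 with ribosomal protein symbols, the table lists 9 of them with 80 counts in all, and how reads with several matches were treated is not given in the sources used here.

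Rpl3 (chr15:80077791-80091868), which lies near the peptidyl transferase centre, had the highest mean level over the 17 libraries, 554 CPM. Rpl4 (chr9:64173375-64178666), which lines the exit tunnel, followed with 436 CPM and Rps15a (chr7:118104372-118116188) with 396 CPM. At the other end stood 3 paralogs, Rpl10l with 4.43 CPM, Rpl36al with 0.949 CPM and Rpl3l with 0.730 CPM. These were the only 3 members whose mean count was under 100, and the median member had a mean count of 1186. Per kilobase of exon the order was led by Rplp1 of the P stalk, with 346 CPM per kb, Rpl38 with 229 and Rpl4 with 217. Since intron reads in new RNA would be counted or not depending on the setting, levels per kb of gene span were also ranked, and the 2 rankings had a Spearman rho of 0.60 across the 82 genes. Rpl3 held rank 4 per kb of exon and rank 41 per kb of span.

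Together the 82 genes took 1.04% to 1.54% of the counts of a library. The share was 1.45% ± 0.086 in PP1 with 4OHT and 1.19% ± 0.135 in PP1 alone (SD, n = 3 each). It was 1.29% ± 0.029 in MEKi with 4OHT and 1.11% ± 0.059 in MEKi alone (SD, n = 3 each), and 1.18% ± 0.084 in 4OHT alone (SD, n = 3) against 1.19% ± 0.048 in DMSO (SD, n = 2). With each inhibitor, every 4OHT library lay above every library without 4OHT, while without an inhibitor the groups overlapped (1.10%, 1.17% and 1.27% in 4OHT clones a, b and c, against 1.16% and 1.23% in DMSO clones b and c).

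The totals behind these shares include 14 loci, called high-count loci here, none of them a member. They were chosen from these data as genes with a mean count of at least 1000. Their share of a library also had to follow that of Cdk8 across the 17 libraries (correlation of at least 0.95). That the 14 move together is thus part of the choice. Together they took 9.38% (4OHT clone a) to 42.0% (PP1 clone a) of a library. The share was also large in MEKi clone b (32.6%) and 4OHT clone b (28.9%). With the loci out of the total, the members' share was 1.53%, 1.78% and 1.799% in PP1 with 4OHT against 1.796%, 1.55% and 1.57% in PP1, and 1.44%, 1.54% and 1.54% in MEKi with 4OHT against 1.27%, 1.67% and 1.37% in MEKi (clones a, b and c), so that the groups then overlapped with either inhibitor. In these 3 libraries the members stood above the other 2 libraries of their group, by a median log2 ratio of 0.17 in PP1 clone a (55 of 82 genes higher), 0.34 in MEKi clone b (80 of 82) and 0.30 in 4OHT clone b (79 of 82). The shift was larger in the 41 shorter genes (0.31, 0.39 and 0.35 in PP1 clone a, MEKi clone b and 4OHT clone b) than in the 41 longer ones (0.07, 0.29 and 0.20). A list of 15 abundant stable mRNAs outside translation, among them Actb and Gapdh, was also highest there. Its summed level was 8572 CPM in PP1 clone a against 5383 and 5640 CPM in clones b and c. In MEKi clone b it was 7118 CPM, against 4723 and 5063 CPM in clones a and c, and in 4OHT clone b 9980 CPM, against 6726 and 8211 CPM. The part of this library-wide shift in the members' results was not tested beyond leaving these libraries out. Results without these 3 libraries are given below for the comparisons that hold a 4OHT group, and not for MEKi or PP1 against DMSO. The shares of all genes called belong to edgeR's adjusted p in fits with all libraries. Counts with libraries left out, at an unadjusted p, with DESeq2 or with the clone as a replicate block have no such share beside them. Such counts therefore cannot be set against all genes here.

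**Figure D1:**
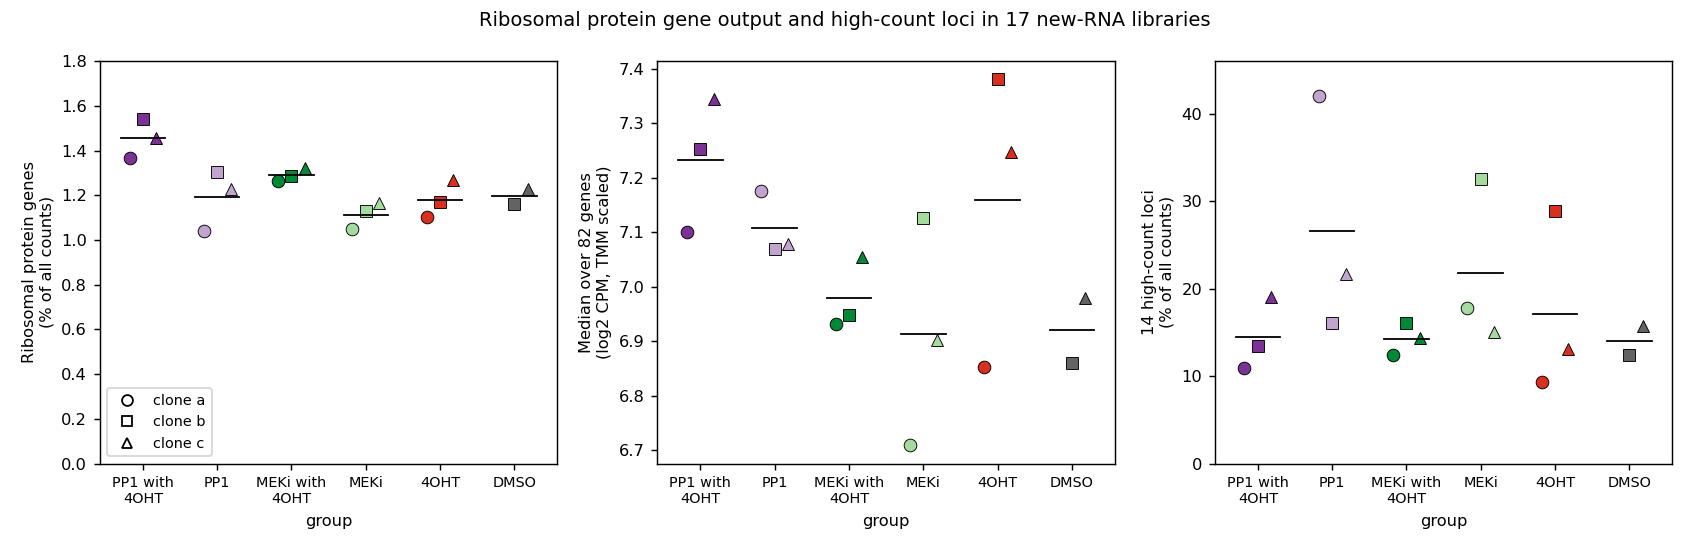
Share of counts in the 82 genes (percent, left), median member level (log2 CPM, middle) and share of counts in 14 high-count loci (percent, right) for each of the 17 libraries by group, with clones a, b and c as different markers. The share of the 82 genes was higher in every library of PP1 with 4OHT and of MEKi with 4OHT than in any library of the same inhibitor alone, which no longer held with the loci left out of the total, and PP1 clone a had the largest share in the loci, 42.0%.

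Members differed widely in how steady they were between clones. The pooled standard deviation within groups was lowest for Rpl5 (0.073 on the log2 CPM scale), Rps24 (0.075), Rpl7l1 (0.080) and Rpl24 (0.087). Among members with a mean count of at least 100 it was highest for Rpl8 (0.34), Rplp1 (0.33), Rps2 (0.33) and Rpl36 (0.33). Which members passed a test below therefore depends on this spread as well as on the size of the difference.

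The first question was what activating RAF for 2 h did to new ribosomal protein RNA. In 4OHT compared with DMSO, 24 of the 82 genes rose and none fell. Of all tested genes 52.0% were called, 25.7% as a rise and 26.3% as a fall, so the 24 rises were close to the general share, while a fall was seen in none of the members. The count of 0 was also 0 at an unadjusted p under 0.05 and with DESeq2, which called 31 rises. The members' median log2 fold change was 0.28, with the middle 50% between 0.18 and 0.37, and 76 of 82 values were above 0. All 14907 genes had a median of -0.02 and a middle 50% from -0.57 to 0.41. The changes in the members were thus modest and mostly in 1 direction. Scaling by library totals alone, however, gave a member median of -0.04 and an all-gene median of -0.32 with no member called. Of all genes that scaling called 8.67% higher and 32.4% lower. Relative to the all-gene median the members were 0.30 higher with TMM and 0.28 higher with library totals.

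Rpl10a (chr17:28328471-28331033), a protein of the L1 stalk where spent tRNA leaves, showed the largest rise. It had 197, 228 and 234 CPM in 4OHT clones a, b and c, against 137 and 148 CPM in DMSO clones b and c. All 3 4OHT libraries lay well above both DMSO libraries (log2 fold change 0.62 ± 0.08, edgeR adjusted p = 1.5e-06; errors of fold changes are standard errors throughout). Rpl24 (chr16:55966275-55971435), part of a bridge between the subunits, was almost identical within groups, with 209, 209 and 211 CPM in 4OHT against 145 and 143 CPM in DMSO (0.54 ± 0.08, edgeR adjusted p = 7.0e-06). Rpl23 (chr11:97777527-97782437), which can also bind MDM2, averaged 304 ± 34.9 CPM in 4OHT (SD, n = 3) and 225 ± 18.7 CPM in DMSO (SD, n = 2), with no overlap (0.44 ± 0.09, edgeR adjusted p = 0.00043).

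Rpl13a (chr7:45125558-45128761), which also serves in the GAIT complex of translational control, was also among the 4 largest rises, but its groups overlapped. It had 17.3, 32.1 and 23.2 CPM in 4OHT, against 15.4 and 17.6 CPM in DMSO, so that clone b, the library with the large share of high-count loci, carried much of the difference (0.53 ± 0.22, edgeR adjusted p = 0.047). Without 4OHT clone b the adjusted p was 0.25, and with the clone as a replicate block it was 0.056. Rpl13a is also overlapped on its own strand by Gm45713.

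Rises were found in both subunits, in 15 of 50 large subunit genes (median 0.27) and 9 of 32 small subunit genes (median 0.29). Rpl5 (chr5:107900502-107909005), which with Rpl11 and 5S rRNA can bind MDM2, had 270.4, 316 and 313 CPM in 4OHT against 224 and 234 CPM in DMSO (0.39 ± 0.08, edgeR adjusted p = 0.00014). Rps24 (chr14:24487125-24496959), mutated in some human patients with Diamond-Blackfan anaemia, had 379, 417 and 422 CPM in 4OHT against 306 and 323 CPM in DMSO (0.37 ± 0.08, edgeR adjusted p = 0.00027). For both, the lowest 4OHT library exceeded the highest DMSO library. The 24 rises spanned log2 fold changes of 0.23 (Rpl26) to 0.62. Besides the genes given so far, they took in the acidic stalk protein Rplp2 (0.39), Rps7 (0.42), Rps10 (0.39), Rps13 (0.39), Rps3a1 (0.37), Rpl23a (0.36), Rps19 (0.35), Rpl34 (0.35), Rps12 (0.35) and Rpl17 (0.42), and smaller rises of Rps15a (0.31), Rpl27 (0.28), Rps18 (0.28), Rpl21 (0.26) and Rpl27a (0.24). The 6 members with a value below 0, none called, were Rpl3l (-0.67), Rpl10l (-0.33), Rpl36al (-0.28), Rpl22l1 (-0.08), Rps20 (-0.05) and Rpl36a (-0.05), of which 4 are paralogs of another member.

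Several of the best-known members were not called. Rplp0 (chr5:115559467-115563727), the base of the P stalk that recruits translation factors, had 157, 262 and 199 CPM in 4OHT against 145 and 175 CPM in DMSO (0.36 ± 0.27, edgeR adjusted p = 0.30). Rps6 (chr4:86854660-86857412) had 89.4, 139.6 and 116 CPM in 4OHT against 86.5 and 99.1 CPM in DMSO (0.30 ± 0.18, edgeR adjusted p = 0.18). In both genes clone b was the highest 4OHT library and the groups overlapped. Rpsa (chr9:120127689-120132369), also known as a laminin receptor, had 205, 303 and 253 CPM in 4OHT against 182 and 198 CPM in DMSO. The groups of Rpsa did not overlap, yet the test did not pass (0.41 ± 0.22, edgeR adjusted p = 0.13). Rps27a (chr11:29545846-29548109), a fusion of ubiquitin with a small subunit protein, had 114, 169 and 145 CPM in 4OHT against 117 and 114 CPM in DMSO (0.30 ± 0.15, edgeR adjusted p = 0.12). The estimates of these 4 genes were as large as those of called members, with wider errors, so they are neither called nor shown to be unchanged.

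The number of rises depended on single libraries. Without DMSO clone b it was 14, without 4OHT clone a 46, and the members' median was 0.15 without 4OHT clone b and 0.43 without 4OHT clone a. Within clones that had both groups, the median was 0.52 in clone b (81 of 82 genes higher) and 0.26 in clone c (73 of 82 higher). Without the 3 libraries of largest share in the high-count loci, 21 members were called and the median was 0.14.

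**Figure D2:**
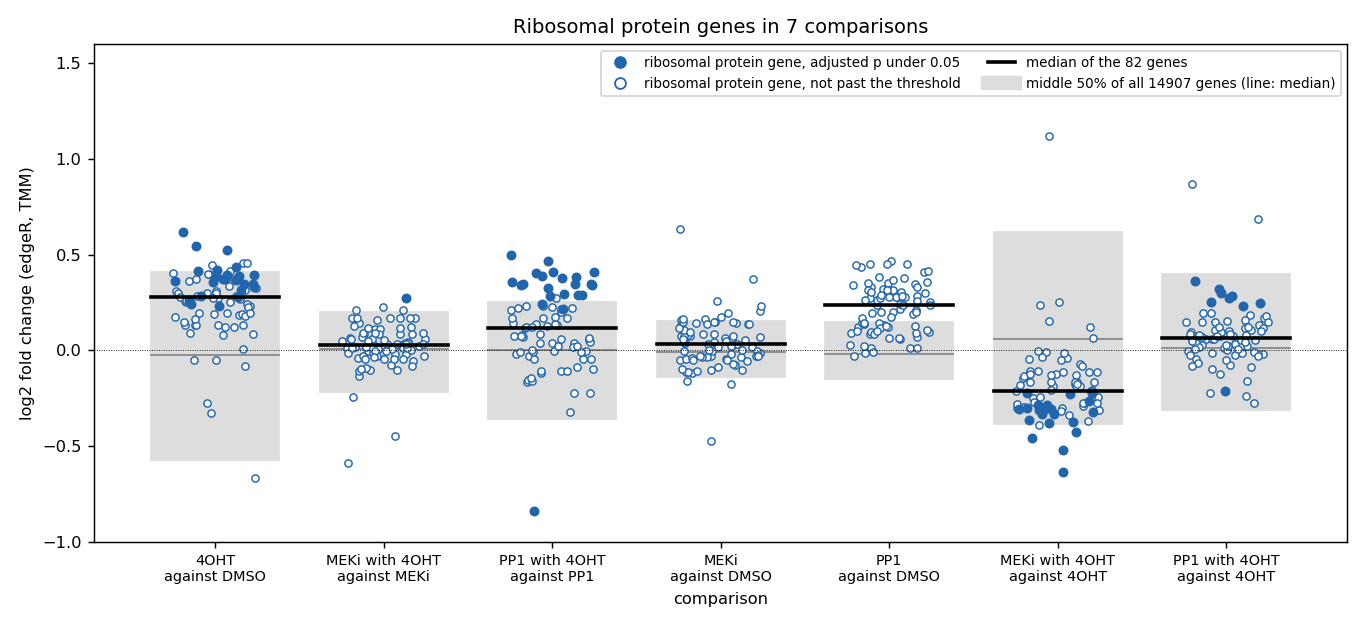
Log2 fold changes of the 82 genes in 7 comparisons (one point a gene, filled where edgeR's adjusted p was under 0.05), with the member median as a black line and the middle 50% of all 14907 genes as a grey box, all with TMM scaling. In 4OHT against DMSO the member median was 0.28 and in MEKi with 4OHT against 4OHT it was -0.21; with library totals alone these medians were -0.04 and 0.15.

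When PP1 was present to block the ERK2 transgene, 4OHT was still followed by rises of some members. In PP1 with 4OHT compared with PP1, 21 of 82 genes rose and 1 fell, where 18.4% of all genes were called higher and 12.8% lower. The members' median was 0.12 and that of all genes 0.00, with 58 of 82 members above 0. With library totals alone these medians were 0.25 and 0.12, and 17 members rose, where 13.7% of all genes did. With totals that left out the high-count loci they were 0.03 and -0.09. There 13 members rose and 2 fell, where 12.7% and 17.1% of all genes did. The members thus stood 0.12 to 0.13 above all genes each time. In 28 members every library with 4OHT lay above every library without it (24.9% of all genes did so), and in 2 below (19.6%). Rps24 led, with 419, 439 and 461 CPM in PP1 with 4OHT against 313, 303 and 317 CPM in PP1 (0.50 ± 0.07, edgeR adjusted p = 8.3e-06). Rpl10a had 194, 203 and 206 CPM in PP1 with 4OHT against 142, 146 and 149 CPM in PP1 (0.47 ± 0.08, edgeR adjusted p = 6.6e-05). In both genes each library with 4OHT lay far above each library without it.

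Rps19 (chr7:24884371-24889806), the most often mutated gene in human Diamond-Blackfan anaemia, had 261, 287 and 273 CPM in PP1 with 4OHT against 190, 213 and 214 CPM in PP1 (0.41 ± 0.08, edgeR adjusted p = 0.00066). Rpl30, which in yeast represses the splicing of its own transcript, had 121, 135 and 131 CPM in PP1 with 4OHT against 86.5, 102 and 102 CPM in PP1 (0.41 ± 0.08, edgeR adjusted p = 0.0004). Neither gene's groups overlapped, and called rises in this comparison ran from 0.21 to 0.50. The 1 fall was Rpl10l (chr12:66283379-66284401), a copy of the X-linked Rpl10 that is used in male germ cells, with 3.07, 3.11 and 3.04 CPM in PP1 with 4OHT against 7.91, 3.68 and 5.88 CPM in PP1 (-0.84 ± 0.30, edgeR adjusted p = 0.034). It rests on 87 counts over the PP1 with 4OHT group and 116 over the PP1 group, and reads of Rpl10 or its pseudogenes could be placed there.

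The clones were not alike in this comparison. The members' median was -0.18 in clone a, whose PP1 library had the largest share in the high-count loci, and 0.26 and 0.25 in clones b and c. Without clone b of PP1 with 4OHT, 12 members were called. Without the 3 libraries of largest share in the loci, 26 rose, 1 fell and the median was 0.16. DESeq2 called 17 rises and 1 fall.

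The comparisons of 4OHT with DMSO and of PP1 with 4OHT against PP1 have no library in common. Of the members, 16 rose in both, 66.7% of the 24 that rose in the first and 76.2% of the 21 that rose in the second. Over all tested genes 1893 rose in both, 49.4% of the 3832 that rose in the first and 68.9% of the 2748 that rose in the second. Whether the members' shares differ from these was not tested. The 5 that rose in the second comparison but were not called in the first were Rpl22, Rpl30, Rpl31, Rpl35a and Rps9, and the difference between the 2 effects was called in none of these. The 16 that rose in both were Rpl3, Rpl5, Rpl7l1, Rpl10a, Rpl23, Rpl23a, Rpl24, Rpl26, Rpl34, Rplp2, Rps7, Rps10, Rps15a, Rps18, Rps19 and Rps24. Several of the 16, such as Rpl5, Rps24, Rpl7l1 and Rpl24, were also among the members of least spread between clones.

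In the presence of the MEK inhibitor few members were called, and the clones went opposite ways. In MEKi with 4OHT compared with MEKi, 1 of 82 genes rose and none fell, where 7.65% of all genes were called higher and 7.03% lower. At an unadjusted p under 0.05, 5 members were higher and none lower, and DESeq2 called 1 rise and no fall. The members' median was 0.03 and that of all genes 0.00. By clone it was 0.18 in clone a (73 of 82 higher), -0.19 in clone b (71 of 82 lower), whose MEKi library had a large share in the high-count loci, and 0.15 in clone c (74 of 82 higher). Without the 3 libraries of largest share in the loci 5 members rose and the median was 0.14. The 1 rise was Rpl10a, with 149.9, 144 and 164 CPM in MEKi with 4OHT against 117, 135 and 127 CPM in MEKi. All 3 libraries with 4OHT were above all 3 without (0.27 ± 0.08, edgeR adjusted p = 0.017), but the call was lost without MEKi clone a (adjusted p = 0.099), without MEKi clone c (0.056) or without clone c of MEKi with 4OHT (0.10). With the clone as a replicate block 2 members were called, and 3 without MEKi clone b. Library totals alone gave a member median of 0.21, where that of all genes was 0.17, and no call.

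No member was called with either inhibitor alone. In MEKi compared with DMSO none of the 82 was called by edgeR (0.0805% of all genes were called higher and 0.449% lower), and the smallest adjusted p of a member was 0.29. At an unadjusted p under 0.05 none was higher and 2 were lower, Rpl10a (-0.17) and Rpl39l (-0.48), and DESeq2 called none. The members' median was 0.03, with 0.30 in clone b, whose MEKi library is the one of large share in the loci, and -0.08 in clone c. In PP1 compared with DMSO none was called by edgeR (0.0805% of all genes higher and 0.161% lower) or by DESeq2, with 12 higher and none lower at an unadjusted p under 0.05 and a smallest adjusted p of 0.19. Those percentages belong to the adjusted p, and no share of all genes at the unadjusted p is given. The members' median was nevertheless 0.24, against -0.02 for all genes, and 79 of 82 values were above 0, with Rpl31, Rps24 and Rpl39l below. In 41 of 82 members every PP1 library lay above both DMSO libraries, where 11.6% of all genes did so.

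This difference was one of many small, uncalled values. Examples picked after seeing the values are Rps28, with 0.33, and Rpl28, with 0.45. It was larger in shorter genes, with a Spearman rho of -0.44 between fold change and span across the 82 genes, which share all their libraries. Without PP1 clone a the median was 0.17, within clones b and c it was 0.21 and 0.09, and with library totals alone it was 0.02. The stable mRNAs outside translation had a median of 0.42 in the same comparison.

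The converse comparison asks how much of the 4OHT level an inhibitor left. In MEKi with 4OHT compared with 4OHT, 21 of 82 genes fell and none rose, where 28.4% of all genes were called lower and 28.4% higher. Here too the share in the direction of the members was close to that of all genes and the other direction was empty: 2 members were higher at an unadjusted p under 0.05 and none by DESeq2, which called 24 falls. The members' median was -0.21 with 76 of 82 values below 0, and the all-gene median was 0.06. By clone the members' median was 0.00 in clone a (43 higher and 39 lower), -0.42 in clone b (80 lower) and -0.17 in clone c (71 lower), so that clone a showed no fall. This direction turns with the scaling. With library totals alone the members' median was 0.15 and 5 rose, where the all-gene median was 0.40 and 39.4% of all genes rose. The members thus stood 0.27 and 0.25 below the all-gene median with TMM and with library totals.

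The largest fall was in Rpl39l (chr16:10170226-10174911), a paralog of the tunnel protein Rpl39 that is enriched in testis. It had 11.4, 12.97 and 8.43 CPM in MEKi with 4OHT against 16.98, 17.9 and 16.3 CPM in 4OHT (-0.64 ± 0.16, edgeR adjusted p = 0.0017). Rpl10a (-0.52 ± 0.07, edgeR adjusted p = 2.3e-06), Rpl24 (-0.46 ± 0.07, edgeR adjusted p = 1.1e-05) and Rpl7l1 (-0.43 ± 0.07, edgeR adjusted p = 1.7e-05) followed. Rpl7l1 (chr17:46773907-46782672), a relative of Rpl7, had 161, 168 and 173 CPM in MEKi with 4OHT against 222, 224 and 229.9 CPM in 4OHT. In these genes each library with the inhibitor lay below each library without it. Falls ran from -0.22 to -0.64. Without 4OHT clone a 37 members were called and the median was -0.36. Without 4OHT clone b the median was -0.09, and without the 3 libraries of largest share in the loci 17 fell, 1 rose and the median was -0.08.

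Few members differed from their 4OHT level when PP1 was present. In PP1 with 4OHT compared with 4OHT, 8 of 82 rose and 1 fell, where 41.8% of all genes were called, 21.4% higher and 20.5% lower. The median was 0.06 for the members and 0.01 for all genes, and the count varied between 1 and 12 when single libraries were left out. It was 1 without clone b or c of PP1 with 4OHT, 2 without 4OHT clone a, 4 without 4OHT clone c, and 5 without either DMSO library or without clone a or b of MEKi with 4OHT. DESeq2 called 4 rises and 1 fall. By clone the median was 0.19 in clone a, -0.05 in clone b and 0.12 in clone c. Without the 3 libraries of largest share in the loci 18 rose, 1 fell and the median was 0.18.

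Among the rises were genes that had not been called in 4OHT against DMSO. Rpl22l1 (chr3:28805436-28807424), the paralog of Rpl22, had 34.8, 43.2 and 49.0 CPM in PP1 with 4OHT against 28.1, 36.5 and 34.3 CPM in 4OHT (0.36 ± 0.14, edgeR adjusted p = 0.039). Rpl35a (0.32 ± 0.10, edgeR adjusted p = 0.013), Rpl39 (0.30 ± 0.09, edgeR adjusted p = 0.013) and Rpl31 (0.29 ± 0.10, edgeR adjusted p = 0.023) followed. The groups of Rpl22l1 overlapped, and without 4OHT clone a none of the 4 was called, with adjusted p of 0.23, 0.10, 0.12 and 0.24 for Rpl22l1, Rpl35a, Rpl39 and Rpl31. The 1 fall was Rpl24, with 168, 196 and 179 CPM in PP1 with 4OHT against 209, 209 and 211 CPM in 4OHT (-0.21 ± 0.07, edgeR adjusted p = 0.024). With library totals alone its value was 0.01, and the members' median was 0.30.

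**Figure D3:**
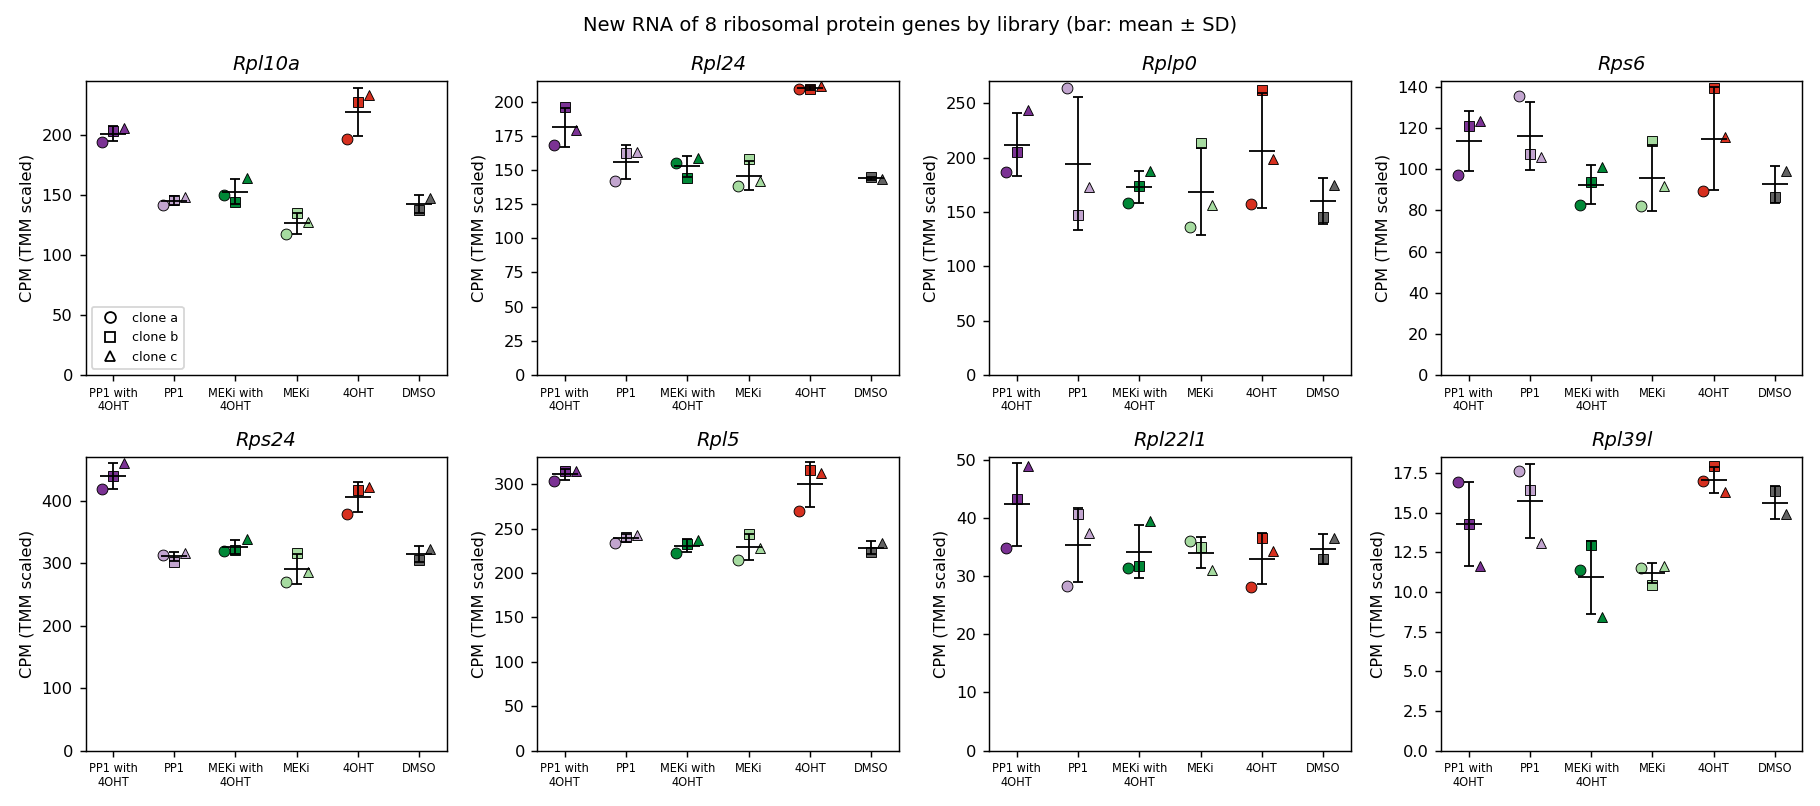
CPM of 8 genes in each library by group (points, one a clone; bars, mean ± SD). Rpl10a, Rpl24, Rps24 and Rpl5 had narrow groups, with every 4OHT library above both DMSO libraries; Rplp0 and Rps6 had wide groups that overlapped, and Rpl39l was lower in both MEKi groups than in 4OHT.

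Whether an inhibitor altered the response to 4OHT was tested directly with an interaction term, the 4OHT effect with inhibitor minus the 4OHT effect without it. With the MEK inhibitor, 7 of 82 members had a smaller 4OHT effect and none a larger one, where 40.4% of all genes were called, 19.3% lower and 21.1% higher. No member was higher at an unadjusted p under 0.05 or with DESeq2, which called 11 lower. The 7 were Rpl24 (-0.48 ± 0.11, edgeR adjusted p = 0.0014), Rpl5 (-0.38 ± 0.10, edgeR adjusted p = 0.0044), Rpl7l1 (-0.34 ± 0.11, edgeR adjusted p = 0.013), Rps7, Rpl10a, Rpl23 and Rpl3. Rpl24 averaged 153 ± 7.76 CPM in MEKi with 4OHT and 146 ± 10.4 CPM in MEKi (SD, n = 3 each), while it averaged 209.9 ± 1.22 CPM in 4OHT (SD, n = 3) and 144 ± 1.22 CPM in DMSO (SD, n = 2). With the clone as a replicate block 19 members had a smaller effect. Leaving out 1 library gave between 5 and 22, with 22 without 4OHT clone a and 12 without DMSO clone c or MEKi clone a. With library totals alone the median of the members' interactions was 0.25 in place of -0.25, and 2 members were called higher and none lower. Of all genes 31.9% were called higher and 4.98% lower with that scaling. Without the 3 libraries of largest share in the loci 6 members were called, all lower, but the median was -0.021.

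For PP1 the interaction was called in 1 member, Rpl24 (-0.33 ± 0.11, edgeR adjusted p = 0.030), where 15.1% of all genes were called higher and 11.4% lower. At an unadjusted p under 0.05, 1 member was higher and 2 lower, and DESeq2 called none higher and 2 lower. The means of Rpl24 were 181 ± 14.2 CPM in PP1 with 4OHT and 156 ± 12.2 CPM in PP1 (SD, n = 3 each). The call was lost without PP1 clone b (adjusted p = 0.066), PP1 clone c (0.071) or clone c of PP1 with 4OHT (0.055), and without 4OHT clone a 7 members were called. With library totals alone the value of Rpl24 was 0.086. The median of the members' PP1 interactions was -0.15, and 0.020 without the 3 libraries of largest share in the loci, where 1 member was called higher and 1 lower. For most members the design therefore does not show a 4OHT effect that differed between cells with and without PP1, nor that it was the same.

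**Figure D4:**
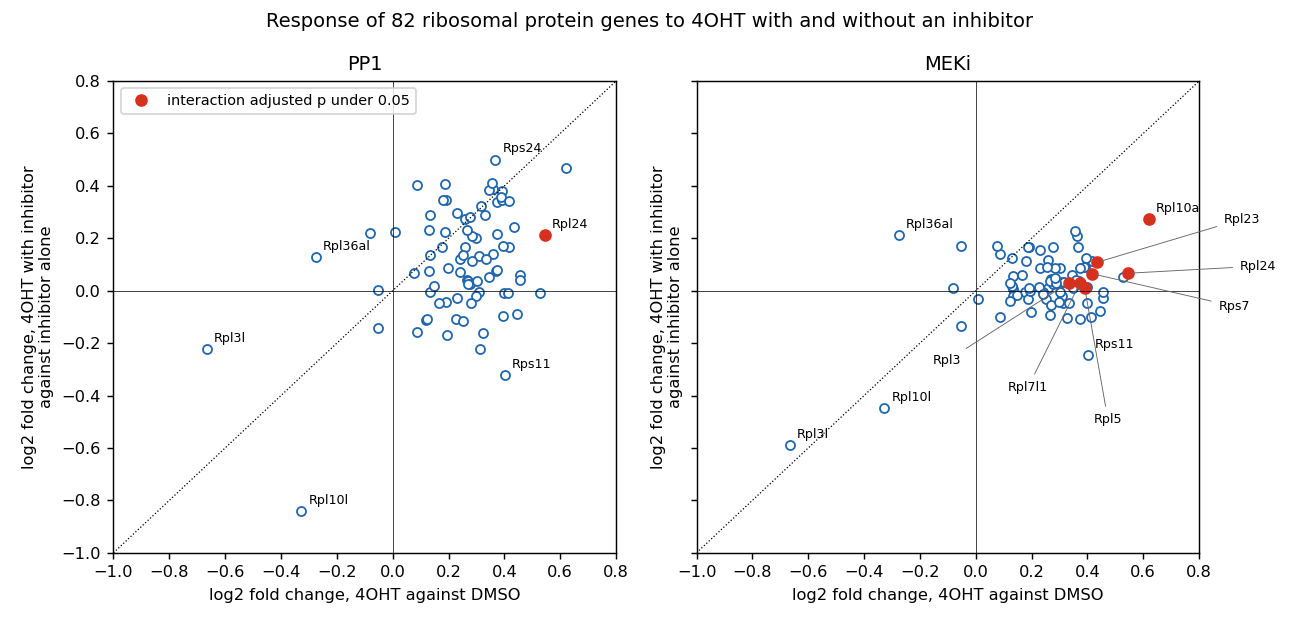
Log2 fold change for 4OHT with inhibitor against inhibitor (y axis; PP1 left, MEKi right) against that for 4OHT against DMSO (x axis), one point a gene, with TMM scaling; red marks an interaction with edgeR's adjusted p under 0.05. In the MEKi panel Rpl24, Rpl5, Rps7, Rpl10a, Rpl7l1, Rpl23 and Rpl3 lie below the diagonal, and in the PP1 panel Rpl24 alone is marked. With library totals alone no member was called lower in either interaction. The interactions of Rpl5, Rpl7l1 and, for PP1, Rpl24 were then above 0.

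The members whose symbols mark them as paralogs were set beside the parent genes they are named after. Whether a paralog takes its parent's place in ribosomes cannot be told from new RNA. In 4OHT against DMSO, Rpl7l1 rose (0.37 ± 0.08, edgeR adjusted p = 0.00038) while the estimate of Rpl7 was 0.31 ± 0.25 (edgeR adjusted p = 0.34). Rpl3 rose (0.33 ± 0.09, edgeR adjusted p = 0.0034), while its muscle paralog Rpl3l was between 0.234 and 1.15 CPM in all libraries and could not be ranked between groups. Rpl22l1 and Rpl22 had estimates of -0.08 ± 0.15 and 0.19 ± 0.11, Rpl39l and Rpl39 of 0.12 ± 0.17 and 0.01 ± 0.11, and Rps27l, a target of p53, and Rps27 of 0.08 ± 0.12 and 0.16 ± 0.13, none called. Differences between a paralog and its parent were not tested.

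Rpl39l had the lowest log2 fold change of the 82 both in MEKi with 4OHT against 4OHT and in MEKi against DMSO. It averaged 10.9 ± 2.31 CPM in MEKi with 4OHT, 11.2 ± 0.637 CPM in MEKi and 17.1 ± 0.821 CPM in 4OHT (SD, n = 3 each), against 15.6 ± 1.03 CPM in DMSO (SD, n = 2). Both MEKi groups lay below the DMSO libraries of 16.4 and 14.9 CPM, but for MEKi alone the difference was not called (-0.48 ± 0.18, edgeR adjusted p = 0.29). Its parent Rpl39 was between 63.0 and 78.3 CPM in the MEKi groups, against 65.6 and 75.7 CPM in DMSO, so the groups of the parent overlapped.

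Features of the genes were set beside the calls as descriptions. Of the 29 snoRNA hosts 12 rose in 4OHT against DMSO (median 0.35), and of the 53 other members 12 rose (median 0.24). Of the 25 members with CCGGAAG 8 rose (median 0.27), and of the 37 with a promoter that lacked it 12 rose (median 0.31). Of the 28 members with a pyrimidine run near the annotated start 8 rose (median 0.26), and of the 34 without it 12 rose (median 0.31). Of the 6 genes with the palindrome, Rpl10a, Rpl26 and Rps19 rose and Rpl12, Rps28 and Rps6 were not called. Called and uncalled members were thus found with and without the core motif and the start sequence in these windows. Leaving aside the 17 members that another gene overlaps, 19 of 65 rose.

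Span went with the fold change differently by comparison. Across the 82 genes Spearman's rho between span and log2 fold change was 0.47 for PP1 with 4OHT against PP1, 0.24 for 4OHT against DMSO and -0.34 for MEKi with 4OHT against 4OHT. These correlations share libraries and span is tied to the library-wide shift given above, so they are descriptions only.

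Other genes of the pathway were followed by lists, whose counts stand beside these shares of all genes called higher and lower. The shares were 25.7% and 26.3% in 4OHT against DMSO, and 28.4% and 28.4% in MEKi with 4OHT against 4OHT. They were 18.4% and 12.8% in PP1 with 4OHT against PP1, and 7.65% and 7.03% in MEKi with 4OHT against MEKi. Whether a list differed from these shares was not tested. Of 20 TOP genes that are not members, 19 were tested, among them elongation factors, Npm1 and Hnrnpa1. In 4OHT against DMSO 14 rose and none fell (median 0.52), including Vim, the intermediate filament vimentin (2.93), Hnrnpa1, a splicing regulator (0.61), and Naca, which binds nascent chains (0.52). In MEKi with 4OHT against 4OHT 14 fell and none rose (median -0.57), and in PP1 with 4OHT against PP1 9 rose and none fell (median 0.22). In MEKi with 4OHT against MEKi edgeR called none of them, with none higher and 1 lower at an unadjusted p under 0.05 and by DESeq2. The counts of 0 in the other 3 comparisons did not change at an unadjusted p under 0.05 or with DESeq2. Their medians were larger in size than those of the members (0.28, -0.21 and 0.12 in the same comparisons).

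Of 10 S6 kinase genes, which include the RSK family that ERK activates, 4 rose and 3 fell in 4OHT against DMSO, with Rps6ka3 at 1.27, Rps6kb1 at 0.70 and Rps6ka2 at -1.18. In MEKi with 4OHT against 4OHT 3 rose and 4 fell. Of 18 regulators of ribosomal protein output, 13 rose and 1 fell in 4OHT against DMSO (median 0.39). Myc, a regulator of growth genes, averaged 63.8 ± 8.76 CPM in 4OHT (SD, n = 3) and 23.0 ± 4.21 CPM in DMSO (SD, n = 2; 1.47 ± 0.17). Eif4ebp1, a translation repressor under mTOR (1.300), Yy1 (0.91) and Gabpa, the DNA-binding subunit of GABP (0.60), also rose. In MEKi with 4OHT against 4OHT 13 of the 18 fell and none rose, also with DESeq2 and at an unadjusted p under 0.05.

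Of 74 mitochondrial ribosomal protein genes tested, 14 rose and 8 fell in 4OHT against DMSO (median 0.02). Of all genes 25.7% rose and 26.3% fell there. In PP1 with 4OHT against PP1 22 rose and none fell (median 0.21), though at an unadjusted p under 0.05 3 were lower and with DESeq2 2, and in MEKi with 4OHT against 4OHT 10 rose and 23 fell (median -0.08). Of the 15 stable mRNAs 8 rose and none fell in 4OHT against DMSO (median 0.73), and 9 fell and none rose in MEKi with 4OHT against 4OHT (median -0.67), and both counts of 0 were also 0 at an unadjusted p under 0.05 and with DESeq2. In PP1 with 4OHT against PP1 2 of them rose and none fell, and their median was -0.03, against 0.12 for the members. In the first pair of comparisons the medians of the stable mRNAs were thus larger in size than those of the members, and in the third smaller.

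**Figure D5:**
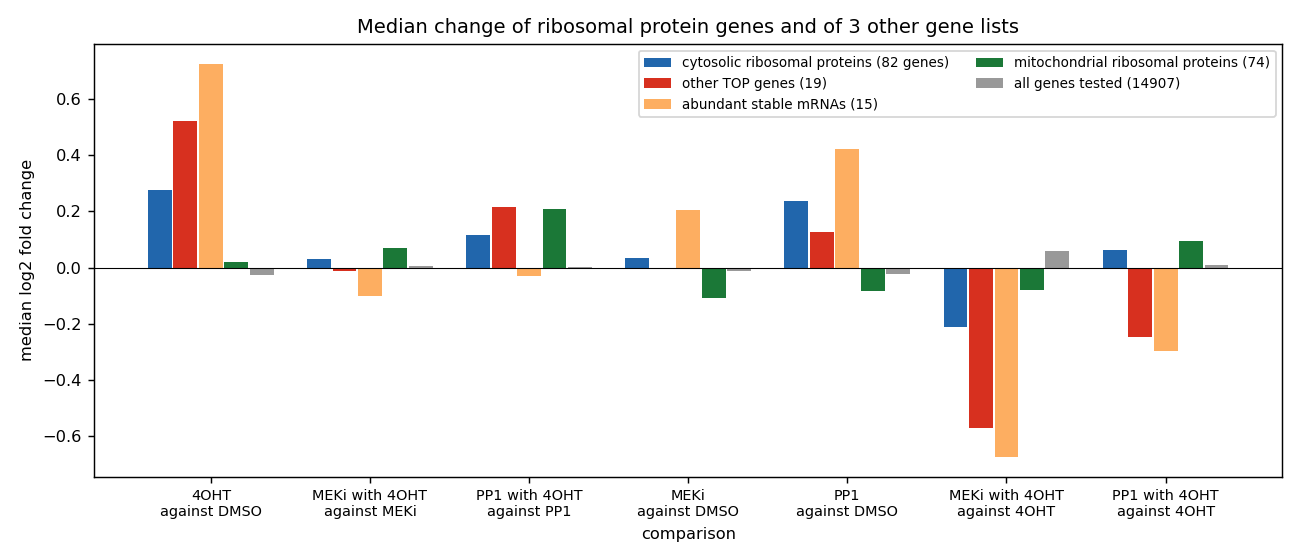
Median log2 fold change in each comparison (TMM scaling) of the 82 ribosomal protein genes, 19 other TOP genes, 15 stable mRNAs, 74 mitochondrial ribosomal protein genes and all 14907 genes. In 4OHT against DMSO the medians were 0.28, 0.52, 0.73, 0.02 and -0.02 in that order; with library totals alone the member median was -0.04.

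Markers of other lineages were low but not constant. Summed levels were 9.02 to 26.2 CPM for 6 primitive endoderm markers, 9.51 to 34.8 CPM for 3 neural markers (Tubb3 was at 0) and 3.15 to 19.4 CPM for 4 trophoblast markers. In 4OHT against DMSO all these lists and the ES cell markers had groups that did not overlap. Trophoblast markers were at 15.0 to 19.4 CPM in 4OHT against 5.68 to 6.39 CPM in DMSO, and 2 of the 4 rose and none fell. Neural markers summed to 26.0 to 34.8 CPM in 4OHT against 14.6 to 16.1 CPM in DMSO. Gene by gene the neural list was mixed, as 1 of the 3 rose and 1 fell (median log2 fold change -0.62). Primitive endoderm markers were at 9.02 to 14.7 CPM in 4OHT against 16.6 to 17.3 CPM in DMSO. Of these 6 genes 2 fell and none rose (median log2 fold change -0.07). ES cell markers were at 2876 to 3179 CPM in 4OHT against 3406 to 3676 CPM in DMSO, where 4 of the 8 fell and 1 rose. The levels in MEKi with 4OHT were 4.22 to 5.29 CPM for trophoblast, 9.51 to 10.2 CPM for neural, 18.9 to 26.2 CPM for primitive endoderm and 3075 to 3431 CPM for ES cell markers. The part of these lists in the members' results was not tested.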

How the data were processed

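New RNA was captured from 17 libraries in 6 groups. The authors deposited 1 table of raw counts per gene symbol, which per the submitters' processing notes came from STAR alignment to mm10 and featureCounts; versions, annotation, feature type, strand setting and the handling of multi-mapping reads were not stated there. Multi-mapping matters for these genes, because discarded reads would lower genes with near-identical pseudogenes.

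From these counts, edgeR 4.0.16 (limma 3.58.1, R 4.3.3) fitted a quasi-likelihood model with 1 term per group over all 17 libraries (TMM scaling, filterByExpr, robust dispersion, 14907 genes, 11 residual degrees of freedom), with Benjamini-Hochberg adjustment and a threshold of 0.05. The standard error was taken as the log2 fold change over the square root of F. DESeq2 1.42.0, other scalings and filters, the clone as a replicate block and leaving out libraries were alternatives, and the fit was tested on simulated data. Clone letters pair libraries by the labels; deviations from group means of same-clone libraries had a mean correlation of 0.086 (40 pairs, -0.147 to 0.362), against -0.043 for different clones (80 pairs). The clone was not a term in the reported fit.

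The members, lists, motifs and comparisons were chosen with earlier results of these data known. Full values go to Rplp0, Rps6, Rpl13a, Rps27a and Rpsa, to paralogs, to the 4 largest called changes in each direction with average log2 CPM of at least 3, to the 3 called interactions of smallest p, and to the 3 members of highest and lowest level. Values given beyond this rule, such as those of Rpl5 and Rps24 in 4OHT against DMSO, were chosen after they were seen. Genes on chromosome 18 are given without sequence.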

Additional observations from a re-analysis of the deposited data

Results flagged for a closer look

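The effect of 4OHT differed between cells with the MEK inhibitor and cells without inhibitor in 7 ribosomal protein genes, by a test of the difference itself (the interaction term of edgeR's quasi-likelihood fit). The interaction, on the log2 scale and with the 4OHT effect without inhibitor subtracted, was -0.48 for Rpl24, -0.38 for Rpl5, -0.35 for Rps7, -0.35 for Rpl10a, -0.34 for Rpl7l1, -0.33 for Rpl23 and -0.30 for Rpl3, with adjusted p of 0.0014, 0.0044, 0.015, 0.017, 0.013, 0.041 and 0.049. With PP1 the same difference was called for Rpl24 alone, at -0.33 (adjusted p = 0.030). With library totals alone no member was called lower in either interaction, so none of these calls held. The median of the members' MEKi interactions was then 0.25 in place of -0.25. The MEKi interactions of Rpl5 and Rpl7l1 and the PP1 interaction of Rpl24 turned to 0.10, 0.13 and 0.086. The PP1 call was also lost without PP1 clone b, PP1 clone c or clone c of PP1 with 4OHT. At these calls 40.4% of all tested genes differed with MEKi and 26.5% with PP1.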

How the results depend on the processing

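Counts of called members moved with the scaling. With library totals alone they were 0 for 4OHT against DMSO, 0 for MEKi with 4OHT against MEKi, 5 for MEKi with 4OHT against 4OHT (all higher, a reversal), 19 for PP1 with 4OHT against 4OHT, and 2 and 6 for the MEKi and PP1 interactions (all higher, reversals), and medians were -0.040, 0.21, 0.15, 0.30, 0.25 and 0.30 in that order, with 0.021 for PP1 against DMSO. With totals that left out the high-count loci the counts were 3, 3, 11 (10 of them higher), 33, 1 and 4 (the last 2 reversed), and medians 0.028 for 4OHT against DMSO, 0.091 and 0.25 for MEKi and PP1 with 4OHT against 4OHT, and 0.037 and 0.0042 for the interactions. Of all genes, library totals alone called 8.67%, 6.29%, 39.39%, 25.61%, 31.89% and 24.91% higher, in the order of these counts. That scaling called 32.35%, 1.29%, 9.83%, 6.50%, 4.98% and 2.98% lower. Totals without the loci called 15.16%, 10.46%, 43.94%, 32.55%, 33.51% and 23.52% higher, and 37.97%, 5.95%, 15.37%, 11.90%, 10.28% and 7.60% lower. Calls higher were thus not particular to the members. Whether the members' counts differed from these shares was not tested. Under library totals alone the named results that reversed were Rpl24 in PP1 with 4OHT against 4OHT (0.013) and the interactions of Rpl5 (0.10), Rpl7l1 (0.13) and, for PP1, Rpl24 (0.086). Of calls over all genes, 49.4% were higher with TMM and 21.1% with totals in 4OHT against DMSO, 52.1% and 82.9% in MEKi with 4OHT against MEKi, 59.0% and 76.6% in PP1 with 4OHT against PP1, 50.02% and 80.0% in MEKi with 4OHT against 4OHT, and 51.1% and 79.8% in PP1 with 4OHT against 4OHT. The splits for the interactions were 52.3% and 86.5% (MEKi) and 57.0% and 89.3% (PP1). The share of counts with the loci out of the total was 1.70% in PP1 with 4OHT, 1.64% in PP1, 1.51% in MEKi with 4OHT, 1.44% in MEKi, 1.44% in 4OHT and 1.39% in DMSO. For MEKi with 4OHT against MEKi, no filter on low counts gave 2, the replicate block 2, leaving out the 2 libraries of highest background 0 and leaving out the 3 of largest share in the loci 5. For PP1 with 4OHT against 4OHT, DESeq2 size factors gave 5, DESeq2 5 and leaving out those 3 libraries 19. For the MEKi interaction the block gave 19, leaving out the 2 background libraries 12, DESeq2 11, and the median without the 3 libraries was -0.021; for PP1 those 3 left out gave 2 and a median of 0.020, and DESeq2 2. Of 22 called results given for named genes, 8 kept their call with library totals alone, 12 with totals without the loci, 21 with DESeq2 and 22 without a filter on low counts. The replicate block ended the call of Rpl13a and no other named call. Leaving out 1 library in turn gave 14 to 46 calls for 4OHT against DMSO (median 0.15 to 0.43), 0 to 3 for MEKi with 4OHT against MEKi (-0.06 to 0.15), 12 to 23 for PP1 with 4OHT against PP1 (0.02 to 0.16), 0 to 0 for MEKi against DMSO (-0.08 to 0.12), 0 to 0 for PP1 against DMSO (0.17 to 0.32), 17 to 37 for MEKi with 4OHT against 4OHT (-0.36 to -0.09), 1 to 12 for PP1 with 4OHT against 4OHT (-0.07 to 0.17), 5 to 22 for the MEKi interaction (-0.40 to -0.14) and 0 to 7 for the PP1 interaction (-0.33 to -0.074). The cause of these shifts was not tested. The 2 DMSO libraries and the 3 per other group limit what can be called, and the 3 members with mean counts under 100 allow no firm value. Leaving out the 3 libraries and the members that another gene overlaps was chosen after seeing the data.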
